A study of Homo sapiens with 58 samples.

Results

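The integrin subunits and laminin chains were followed across 58 human cell lines, all of which the labels call breast cancer cells. Messenger RNA of each line was measured at baseline, without treatment, on 1 custom Affymetrix array, and no line had a replicate. Members were taken by gene symbol from the array's annotation: every integrin alpha and beta subunit and every laminin alpha, beta and gamma chain that a probe set named alone. This gave 35 of 19798 genes, namely 17 alpha subunits, 8 beta subunits and 10 laminin chains. Where a gene had several such probe sets, as 23 members did, the probe set with the highest mean was read. ITGA3 and LAMA3 were not analysed here. The labels put all lines in 1 group, so the comparisons below run along scores computed from marker genes. Immortalised mammary epithelial lines of the series carry the same label as the cancer lines and were not set apart here. The high end of a member is therefore not always a cancer line. Lines known to share a donor were averaged, which left 50 units: AU565 with SKBR3, EFM192A with EFM192B and EFM192C, VP229 with VP267, HMT3522S1 with HMT3522T42, MB157 with MDAMB157, and MDAMB435S with M4A4 and NM2C5.

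Integrins are receptors on the cell surface, each built of 1 alpha and 1 beta subunit, that bind proteins of the extracellular matrix or, in leukocytes, other cells. Laminins are trimers of an alpha, a beta and a gamma chain and form the sheet of the basement membrane under an epithelium. In the breast, the myoepithelial cells sit on that membrane and hold it through hemidesmosomes, junctions built around the integrin of ITGA6 and ITGB4, which binds the laminin that contains LAMB3.

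The median log2 intensity of an array was 5.37 to 5.58, and a gene was called detected where it exceeded the array median in at least 3 units. The epithelial markers EPCAM, CDH1 and KRT18 exceeded it in 53, 46 and 58 lines, and PTPRC, which defines leukocytes, in 0 lines. Other blood cell markers are given with the leukocyte integrins. Of the endothelial markers, PECAM1 exceeded the array median in 27 lines, CDH5 in 13, KDR in 11, TEK in 7 and VWF in 4. EPCAM was at or below the array median in BT549, HCC1395, HS605T, MDAMB435S and NM2C5. In 3 lines, those of the MDAMB435 set, the melanocyte genes MLANA and TYR exceeded it, with TYR at up to 13.06 in NM2C5. The other melanocyte markers were less restricted. PMEL exceeded the array median in 25 lines, but not in MDAMB435S (5.10), MITF did in 57 and SOX10 in 6. The lines of the MDAMB435 set and MT3 are reported in the literature not to come from breast tumours. The summed level of 7 fibroblast markers ran from 26.7 in DU4475 to 92.3 in HS362T. HS362T, HS579MG, HS605T, HS739T and HS578T, lines with a fibroblast-like profile, had stromal scores (defined below) from 8.10 to 8.19, above all other units. MDAMB157 was averaged with MB157 to a score of 2.74. Alone it had the highest PDGFRB of all lines (12.33), with COL3A1 at 12.87 and DCN at 11.34 but COL1A2 at 5.42. Calls lost without the fibroblast-like lines are named below, with the slopes for some members only. Whether a mixture of cells or the cells themselves carried those markers was not tested.

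Of the 35 members, 32 were detected. ITGAD and ITGAM, alpha subunits of leukocyte integrins, and LAMB4 were not. ITGAD stayed between 2.63 and 3.50, LAMB4 reached 3.90, and ITGAM exceeded the array median only in HCC1937 (6.33) and MDAMB436 (5.98). The number of members above the array median ran from 16 in DU4475 and MDAMB453 to 25 in HS362T and MDAMB436.

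Members varied more than most genes. The SD over the 50 units was at least 1 for 22 of 32 detected members, against 34.2% of all 14651 detected genes, and at least 1.5 for 12 members, against 19.7% of all. The median SD was 1.23 for members and 0.70 for all detected genes. The widest were ITGB6 (3.34), LAMA4 (2.65), ITGA4 (2.57), ITGB8 (2.55), ITGA1 (2.49), LAMB3 (2.42), ITGA9 (2.38), ITGA5 (2.06), ITGA10 (1.81) and LAMA2 (1.74). On the probe sets read here, the narrowest were ITGA8 (0.17) and LAMC3 (0.21), followed by ITGB1 (0.35), the beta subunit that pairs with most alpha subunits of this list. A second ITGB1 probe set was wider, with an SD of 0.88 over lines, from 8.97 in SKBR3 to 12.60 in HS605T. On the probe set read, the level of ITGB1 ran from 11.999 in SKBR3 over a median of 12.88 to 13.48 in HS605T, so every line carried it at a high intensity.

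**Figure D1:**
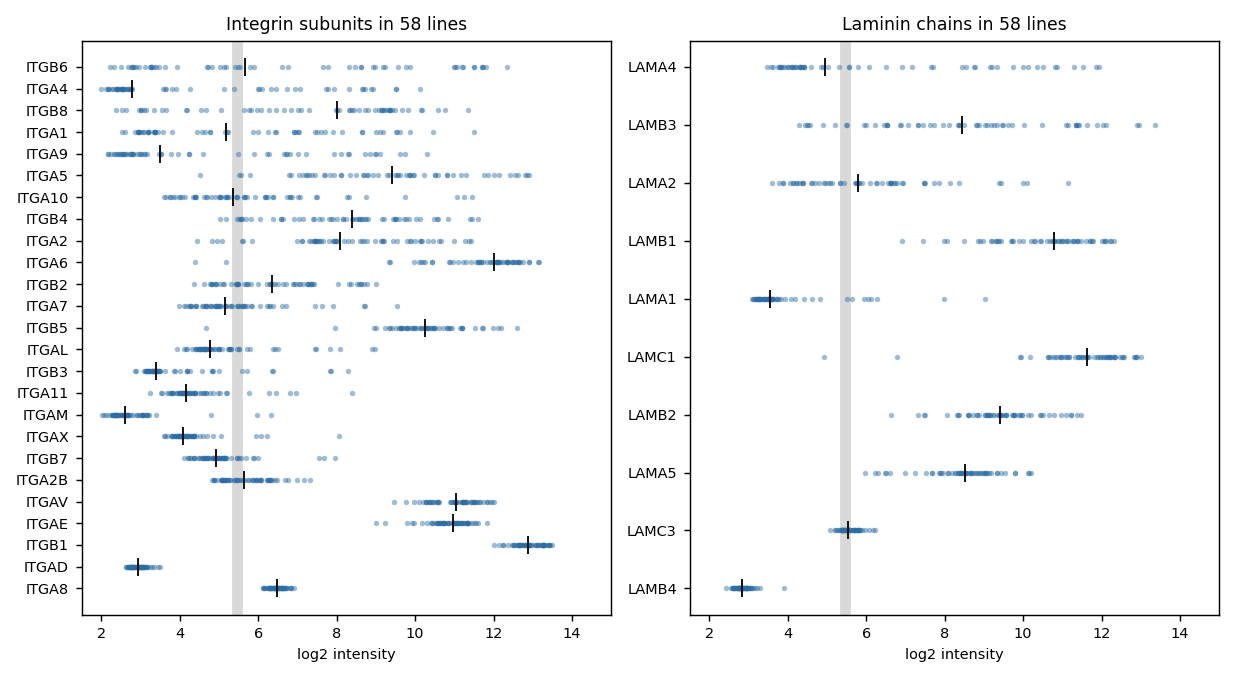
Log2 intensity (x axis) of the 25 integrin subunits and 10 laminin chains in each of 58 lines (1 point per line). The black tick is the median over lines, the grey band the range of array medians, and members run from the widest SD at the top to the narrowest. ITGB6, LAMA4 and ITGA4 spread over most of the axis, while ITGB1 and ITGAV stayed high in every line.

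Each unit was given 4 scores, the mean distance of marker genes from their median over units. The luminal score used 9 genes (among them GATA3 and FOXA1), the basal score 6 (among them KRT5 and TRIM29), the stromal score 10 (among them COL1A1 and DCN) and the mesenchymal score 10 (among them VIM and ZEB1). A slope is the change in log2 intensity per unit of score, fitted for all 14651 detected genes with limma, with Benjamini-Hochberg adjustment over all of them. The basal score fell into clusters of 26 low and 24 high units, so its slopes were fitted within clusters.

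Along the luminal score, 16 of 32 members passed (background 34% of all detected genes): 13 fell (background 14.5%) and 3 rose (background 19.4%). Along the mesenchymal score, 19 passed (background 36.8%): 16 rose (background 15.6%) and 3 fell (background 21.2%). Along the stromal score, 18 passed (background 32.8%): 14 rose (background 13.7%) and 4 fell (background 19.1%). The share of members was thus above the background for falls on the luminal score and for rises on the other 2, and below it in the opposite directions. Along the basal score, only LAMB3 passed, and it rose (background 0.218%). In limma 0 members fell on the basal score, as did 0 of all 14651 genes, while 1 member and 571 genes had a falling slope with an unadjusted p under 0.05. The median slope of the members was −0.11 on the luminal score against 0.01 over all genes. It was 0.11 on the mesenchymal score against −0.01, 0.08 on the stromal score against −0.02, and 0.06 on the basal score against −0.00. The direction of most calls was therefore downward towards luminal units and upward towards mesenchymal and stromal units. ITGB6, LAMA5 and ITGAL ran the other way, rising on the luminal and falling on the mesenchymal score; both scores were computed over the same 50 units.

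These counts leaned on few lines and on how the scores share their units. Without the 5 fibroblast-like lines, 11 of 31 members passed on the luminal score (25.2% of all genes), 13 on the mesenchymal (25% of all genes) and 1, ITGA5, on the stromal score (5.62% of all genes), so the stromal share was then below that of all genes. ITGA11 was then no longer detected and had no test. The luminal calls lost were those of ITGAE, ITGAV, ITGB3 and LAMA5. On the mesenchymal score ITGA1, ITGA10, ITGAE, ITGB5, ITGB6 and LAMA5 lost theirs. Every stromal call but that of ITGA5 was lost. With all 4 scores as terms of 1 model, 2 of 32 members passed on the luminal (1.57% of all genes), 3 on the mesenchymal (1.8%) and 3 on the stromal score (4.74%): ITGB6 and LAMB1 on the luminal score, ITGAV, ITGB8 and LAMB3 on the mesenchymal score, and ITGA11 among those on the stromal score.

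**Figure D2:**
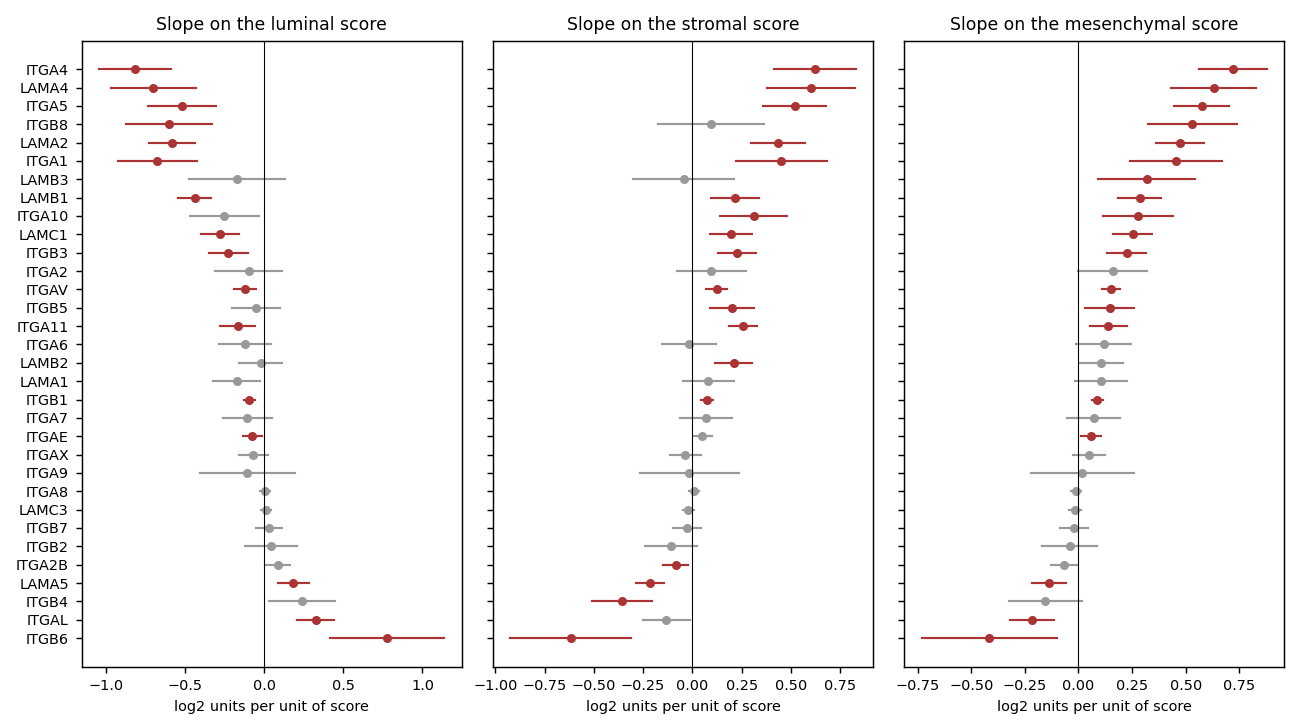
Slope of each detected member on the luminal, stromal and mesenchymal scores (x axis, log2 units per unit of score; y axis, members in order of their mesenchymal slope) with its 95% interval. Red marks an adjusted p under 0.05 and grey the rest; ITGA4 lies at the lower end on the luminal score (−0.82) and at the upper end on the mesenchymal score (0.72), and ITGB6 lies opposite.

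The same scores were read for 29 detected genes of a list of adhesion partners, which holds matrix proteins, hemidesmosome proteins and proteins that link integrins to actin. On the luminal score 18 of the 29 fell (background 14.5%) and 1 rose (background 19.4%). On the mesenchymal score 20 rose (background 15.6%) and 1 fell (background 21.2%), and on the stromal score 19 rose (background 13.7%) and 2 fell (background 19.1%). The partner counts were not taken again without the fibroblast-like lines or with all scores in 1 model. The collagen IV chain COL4A2, a part of the basement membrane, fell by 0.81 per unit of luminal score, and FN1, the fibronectin that ITGA5 with ITGB1 binds, rose by 0.79 per unit of mesenchymal score. BCAM, a surface receptor for laminins that contain LAMA5, ran opposite to most of the list, with slopes of 0.43 on the luminal, −0.30 on the mesenchymal and −0.22 on the stromal score. The other partner that fell on the stromal score was AGRN, a basement membrane proteoglycan, with a slope of −0.081 (adjusted p = 0.0171, limma). On the basal score 0 of 29 passed in limma (background 0.218%), and 3 had an unadjusted p under 0.05.

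LAMB3, the beta chain of the hemidesmosome laminin, was lowest in CAMA1 at 4.29, had a median of 8.43 and was highest in MCF102A at 13.36. HCC1806, SUM149PT, SVCT and HCC1143 followed MCF102A, and EVSAT, EFM192C, MDAMB453 and DU4475 stood near CAMA1. Within the basal clusters LAMB3 rose by 0.95 per unit of basal score (SE 0.17, adjusted p = 0.00216, limma). On the mesenchymal score its slope was 0.32 (SE 0.11, adjusted p = 0.0221). The basal call was lost when AU565, SKBR3 and DU4475 were left out together (slope 0.70, adjusted p = 0.0781, limma), and the mesenchymal slope was −0.031 when the probe sets of each gene were averaged. LAMB3 itself has 1 probe set; in that setting the mesenchymal score split into clusters, and slopes were fitted within them.

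ITGB4, the beta subunit of the hemidesmosome integrin, ran from 5.02 in BT549 over a median of 8.40 to 11.61 in MCF102A. HCC1143, HCC1806, HMT3522S1 and DU4475 were next to MCF102A, and HS579MG, NM2C5, HS578T and HS739T were next to BT549. ITGB4 fell by 0.36 per unit of stromal score (SE 0.08, adjusted p = 0.000241, limma). Its basal slope of 0.46 (SE 0.15) had an adjusted p of 0.25 in limma, and its luminal slope of 0.24 one of 0.0651. The fibroblast-like lines thus held 3 of the 5 lowest values, and without those 5 lines the stromal slope of ITGB4 was −0.21 with an adjusted p of 0.455 (limma).

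ITGA6, the alpha subunit of the same integrin and also a partner of ITGB1, had a median of 12.01 and a maximum of 13.16, reached in HCC1806, and passed on none of the 4 scores (adjusted p from 0.145 to 0.86, limma). It was 9.34 or more in all lines but the pair SKBR3 (4.38) and AU565 (5.19). LAMC1, the gamma chain of most laminin trimers, with a median of 11.62 and a maximum of 13.01, showed the same pair apart, with 4.92 in SKBR3 and 6.79 in AU565, against 9.91 or more in all other lines. Another such case was ITGB5, a beta subunit that pairs with ITGAV, at 4.68 in DU4475 against 7.96 or more elsewhere.

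These 3 were the only detected members in which a line lay at least 2 log2 units below or above every line outside its own set, against 4.30% of all detected genes. Most other probe sets of the genes gave the same lowest lines. A second probe set of ITGA6 stood at 5.42 in AU565 and 4.76 in SKBR3 against 9.07 or more elsewhere, and a second one of LAMC1 at 5.54 and 5.02 against 8.25 or more. A further probe set of ITGB5 stood at 4.92 in DU4475, against 7.78 or more. One more of LAMC1 (3.76 and 3.28 against 5.12 or more) and one more of ITGB5 (3.32 against 5.06 or more) had the same lines lowest with a gap under 2. The last LAMC1 probe set was at or below the array median in all lines and did not separate the pair (3.73 and 3.205, against 2.92 or more). AU565 and SKBR3 come from the same donor, and the low values of ITGA6 and LAMC1 were present in both lines.

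Genes beside these members in the RefSeq gene order, looked up after the levels were seen, were compared in the same lines. On chromosome 2, PDK1, which follows ITGA6, had 10.20 in AU565 and 10.35 in SKBR3 beside a median of 9.86 in the other lines, and DLX2 before it had 11.82 and 9.61. MAP3K20, the next gene after PDK1, was lower in this pair, with 8.69 and 8.91 beside 10.88. On chromosome 1, DHX9, which precedes LAMC1, had 11.95 and 11.94 beside a median of 11.96, while NMNAT2 after it had 3.80 and 4.30 beside 6.04. On chromosome 3, UMPS before ITGB5 had 10.19 in DU4475 beside a median of 10.49, while HEG1, after ITGB5 and MUC13, had 7.20 beside 10.27. Neighbours of each member thus included both genes near the level of the other lines and lower ones; gene copy number was not measured, and whether it bears on the low values was not tested.

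**Figure D3:**
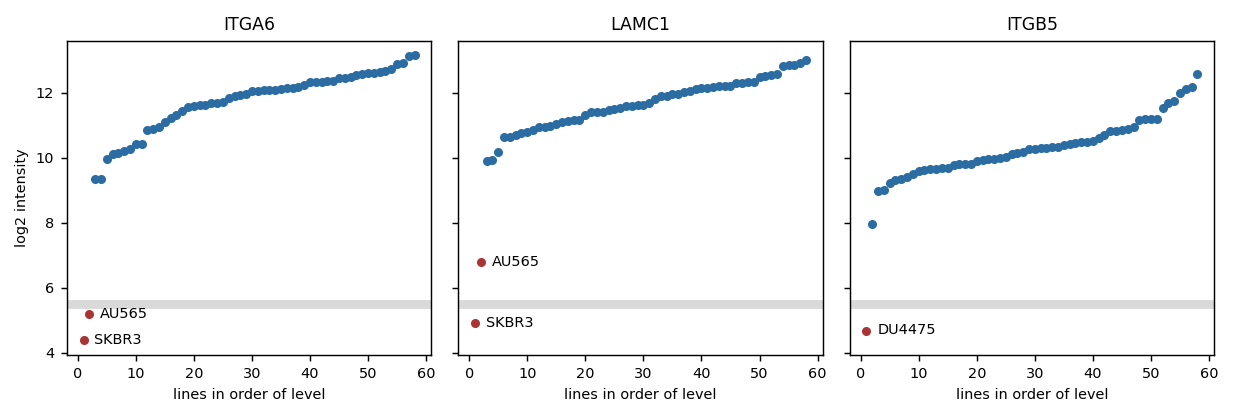
Log2 intensity (y axis) of ITGA6, LAMC1 and ITGB5 in 58 lines in order of level (x axis), with the lines that stand apart in red and the range of array medians as a grey band. ITGA6 was 4.38 in SKBR3 and 5.19 in AU565, LAMC1 4.92 and 6.79 in the same lines, and ITGB5 4.68 in DU4475.

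DU4475, a line known to grow in suspension, stood at an end of the range for several other members. It had the lowest ITGA5 (4.53) and the lowest ITGAV (9.45) of all lines, and low ITGB8 (2.97) and LAMB3 (4.56). It also had the highest ITGA1 (11.49), with ITGB4 at 10.59 and ITGA6 at 11.69. Its integrins were thus not low throughout.

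Among the laminin alpha chains, LAMA4 and LAMA2 went one way and LAMA5 the other. LAMA4, a chain of vessel and connective-tissue laminins, had a lowest value of 3.47 in CAMA1, a median of 4.96 and a highest value of 11.94 in HS579MG. The next were HS362T (11.86), HS605T (11.51) and HS739T (11.29), with MDAMB157 (10.86) and VP267 (10.82) behind them. LAMA4 fell by 0.70 per unit of luminal score and had slopes of 0.60 on the stromal and 0.63 on the mesenchymal score, each past the threshold. The stromal slope of LAMA4 was 0.34 without the 5 fibroblast-like lines (adjusted p = 0.373, limma). Its upper end was thus made of fibroblast-like lines, followed closely by lines outside that group.

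LAMA2, the alpha chain of muscle and connective-tissue laminins, ran from 3.59 in EFM192C over a median of 5.79 to 11.15 in HS605T, with MDAMB157 (10.09), HS362T (9.998) and HCC38 (9.43) next. Its luminal slope was −0.58 (SE 0.07, adjusted p = 1.81e-08, limma), and its mesenchymal slope was 0.47. LAMA5, the alpha chain of most adult epithelial basement membranes, ran from 5.96 in M4A4 over a median of 8.53 to 10.20 in EFM192B. Next to M4A4 stood HS362T (6.23), HS579MG (6.31), HS605T (6.47) and HS739T (6.50), so fibroblast-like lines made up the lower end. LAMA5 rose by 0.18 per unit of luminal score (SE 0.05, adjusted p = 0.00291, limma) and fell by 0.22 on the stromal score. Without the 5 fibroblast-like lines the slopes of LAMA5 were 0.08 on the luminal, −0.15 on the stromal and −0.06 on the mesenchymal score, with adjusted p of 0.202, 0.156 and 0.295 in limma. LAMA1, the chain of embryonic basement membranes, stayed near 3.54 in most lines and reached 9.02 in MDAMB436 and 7.98 in EVSAT; it passed on none of the scores.

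Of the beta and gamma chains that complete these trimers, LAMB1 and LAMB2 were above the array median in 58 lines and LAMC1 in 57, LAMC3 was in 35 and LAMB4 in 0. LAMB1, the beta chain of the commonest laminins, had 6.91 in MFM223, a median of 10.78 and 12.32 in MCF12A, and MDAMB453 (7.45), MDAMB175VII (7.98) and MDAMB361 (8.07) were next to the lowest. It had the smallest adjusted p of all members on the luminal score, falling by 0.44 (SE 0.05, adjusted p = 5.72e-09, limma). LAMC1 also fell along it, by 0.28 per unit. LAMB2, the beta chain of laminins in muscle and kidney, ran from 6.63 in HCC1806 over a median of 9.40 to 11.47 in HS362T; its stromal slope of 0.21 passed, and without the 5 fibroblast-like lines it was 0.068 with an adjusted p of 0.727 (limma). LAMC3 was flat on the probe set read here, with an SD of 0.21, but its other 2 probe sets reached 8.12 and 8.001 in HCC1143 and were high in HCC1569, MDAMB157 and HCC1395 too.

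Of the collagen-binding alpha subunits, ITGA1 and ITGA11 followed the stromal and mesenchymal scores and ITGA2 did not pass on any. ITGA1 had 2.52 in MDAMB175VII, a median of 5.18 and 11.49 in DU4475, with HS362T (10.47), HS605T (9.86), HS579MG (9.60), HS578T (9.53) and HS739T (9.51) next. Its luminal slope was −0.67, its stromal slope 0.45 and its mesenchymal slope 0.46, all past the threshold. The stromal slope of ITGA1 without the 5 fibroblast-like lines was 0.02 (adjusted p = 0.972, limma) and the mesenchymal one 0.27 (adjusted p = 0.0878). ITGA11, a collagen receptor of fibroblasts, was above the array median in few lines: HS362T (8.39), HS739T (6.96), HS579MG (6.82), HS578T (6.47), MDAMB157 (6.28) and HS605T (5.77) were the 6 highest. A second ITGA11 probe set had the 5 fibroblast-like lines on top, from 11.15 in HS362T to 9.74 in HS605T, with a median of 3.01 over all lines.

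ITGA11 had a stromal slope of 0.26; without the 5 fibroblast-like lines, the units in which it exceeded the array median, it was no longer detected and could not be tested. ITGA8, which binds matrix proteins with ITGB1, depended on the probe set: the one with the highest mean ran only from 6.13 to 6.91. Its 3 other probe sets reached 9.77, 10.07 and 9.14 in HS578T and were above the array median there and in HS362T, HS579MG and HS739T only. ITGA10, a collagen receptor known from cartilage, was highest in MCF12A (11.44), HMT3522T42 (11.24) and BT549 (11.08), over a median of 5.35 and a lowest value of 3.60 in HCC70. Its stromal slope was 0.31 and its mesenchymal slope 0.28, and without the 5 fibroblast-like lines they were 0.50 (adjusted p = 0.0545, limma) and 0.25 (adjusted p = 0.0609). The stromal one was −0.022 without AU565 and SKBR3 and −0.023 without DU4475. In both settings the stromal score split into clusters, and whether that split gave the change was not tested. ITGA2, a collagen receptor of epithelium and platelets, ran from 4.43 in MDAMB157 over a median of 8.10 to 11.42 in HS739T, and VP267 (11.37), HS605T (11.27) and SVCT (10.9998) were next.

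ITGA5 and ITGA4 were among the members that followed the mesenchymal score most closely. ITGA5, which with ITGB1 makes the main fibronectin receptor, had 4.53 in DU4475, a median of 9.41 and 12.91 in HS605T, and HS578T (12.86) and HMT3522T42 (12.79) were next. Its mesenchymal slope was 0.58 (adjusted p = 4.72e-10, limma) and its luminal slope −0.52. The upper end mixed fibroblast-like lines with the mammary epithelial HMT3522 lines, and the mesenchymal call stood without the fibroblast-like lines. That call was lost with all 58 lines as units (slope 0.40, adjusted p = 0.0561, limma). With all 4 scores in 1 model it was lost too (slope 0.47, adjusted p = 0.0542, limma). ITGA4, known from lymphocytes, where it binds VCAM1 and fibronectin, was lowest in HCC1187 (2.003), had a median of 2.77 and was highest in HS605T (10.12), followed by MDAMB435S (9.52), HCC38 (9.51) and MCF102A (8.93). Its levels formed 26 low and 24 high units. It rose by 0.72 per unit of mesenchymal score (SE 0.08, adjusted p = 3.46e-10, limma) and fell by 0.82 per unit of luminal score (SE 0.11, adjusted p = 1.44e-07). ITGB1 had the same signs with small slopes on the probe set read, −0.09 on the luminal and 0.09 on the mesenchymal score, both past the threshold. With averaged probe sets the ITGB1 slopes were −0.17 and 0.19.

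ITGA9, a receptor of tenascin that also pairs with ITGB1, was spread as widely as ITGA4 but passed on none of the scores. It had 2.17 in MCF12A, a median of 3.50 and 10.30 in MB157, with M4A4 (9.73), MDAMB157 (9.60), CAL51 (9.12) and NM2C5 (8.99) next. Its mesenchymal slope was 0.02 (95% interval −0.22 to 0.26). ITGA7, the laminin receptor of muscle, was high in SW527 (9.53), MFM223 (8.73) and FR2 (8.69), with a median of 5.17 and a lowest value of 3.99 in MDAMB231, and passed on none of the scores either. Not every wide member was tied to these axes.

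The integrins of ITGAV differ by their beta subunit, and the betas moved apart. ITGAV itself, the alpha subunit that binds the RGD motif of vitronectin and fibronectin, was high everywhere, from 9.45 in DU4475 over 11.05 to 12.02 in HS605T. ITGB6, a beta of epithelium known for activating TGF-beta, had 2.24 in MDAMB157, a median of 5.67 and 12.33 in MCF102A, and VP267, HCC38, HCC70 and BT20 were next. It rose by 0.78 per unit of luminal score (SE 0.18, adjusted p = 0.000568, limma), and fell by 0.62 on the stromal and by 0.42 on the mesenchymal score. Without the 5 fibroblast-like lines both falls of ITGB6 missed the threshold (stromal −0.84, adjusted p = 0.0827; mesenchymal −0.28, adjusted p = 0.291, limma), and its stromal slope was −0.30 (adjusted p = 0.531) after a second normalization, under which that score split into clusters. The basal slope was 0.95 with an adjusted p of 0.243 (limma). The highest line was thus one with a high basal score, while the slope that passed in the upward direction was on the luminal score.

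ITGB8, the other TGF-beta activating beta, went the opposite way. It had 2.38 in EVSAT, a median of 7.998 and 11.34 in HCC1569, followed by SUM149PT (10.76), M4A4 (10.58) and MB157 (10.17), and AU565 (2.52), MDAMB453 (2.62), DU4475 (2.97), SKBR3 (3.01) and MFM223 (3.01) stood beside EVSAT. Its slopes were −0.60 on the luminal and 0.53 on the mesenchymal score; the mesenchymal one was 0.16 with an adjusted p of 0.515 (limma) when the probe sets of each gene were averaged and the score split into clusters. ITGB3, the beta of platelets, osteoclasts and melanoma cells, was high in M4A4 (8.29), MDAMB435S (7.86) and CAL51 (7.83) over a median of 3.39, and NM2C5 (6.39) and HS579MG (6.36) were next. The 3 lines with MLANA and TYR above the array median were thus among the 4 highest. ITGB5 had a median of 10.26 and a maximum of 12.59, and its mesenchymal slope of 0.14 passed with all units but had an adjusted p of 0.0976 (limma) without DU4475. The slope of ITGB5 was 0.04 without the 5 fibroblast-like lines (adjusted p = 0.678).

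Subunits known from leukocytes and platelets were low in most lines but not absent from all. ITGAL, the alpha subunit of the lymphocyte receptor LFA-1, was lowest in MCF102A (3.92), had a median of 4.77 and was highest in ZR751 (8.99), MDAMB361 (8.89), UACC893 (8.10) and T47D (7.82). It rose by 0.33 per unit of luminal score (SE 0.06, adjusted p = 2e-05, limma) and fell by 0.22 on the mesenchymal score. Its 2 other probe sets had the same 4 lines on top, at up to 8.46 and 9.05. Its partner ITGB2 was highest in HCC1954 (9.01), MDAMB157 (8.79) and MB157 (8.69), over a median of 6.35, and its luminal slope of 0.04 did not pass (adjusted p = 0.716, limma).

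Of 7 blood cell markers measured, PTPRC, which defines leukocytes, did not exceed 5.47 in any line and CD3E, a T cell gene, did not exceed 4.003. The other markers did exceed the array median: CORO1A in 53 lines, CD14 in 34, LAPTM5 in 18, and HCLS1 and IKZF1 in 5 each. Their summed level ran from 27.8 in EVSAT to 42.8 in HCC1806, and their part in the levels of leukocyte integrins was not tested. ITGAX, the alpha subunit of dendritic cells, was high in MDAMB436 (8.06), next to 6.21 in HCC1937. ITGB7, the beta of gut-homing lymphocytes, was highest in VP229 (7.95), MCF102A (7.67) and EFM192A (7.54). ITGA2B, the platelet subunit, ran only from 4.82 to 7.33 in T47D and fell by 0.09 on the stromal score, a call lost without the 5 fibroblast-like lines (slope −0.05, adjusted p = 0.72, limma). Of 4 platelet markers, GP1BA exceeded the array median in 0 lines, PPBP in 2, PF4 in 9 and GP9 in 58, with PF4 and PPBP highest in SUM149PT (12.4 and 11.8). ITGAE, the alpha subunit of intraepithelial lymphocytes, was above the array median in all lines, from 9.01 over 10.96 to 11.84; its slopes of −0.07 on the luminal and 0.06 on the mesenchymal score passed narrowly and each missed the threshold under several alternatives.

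Subunits that share a protein were then compared with each other. Of 29 pairs listed, 23 could be tested, in 31 relations, since relations were computed within clusters where a gene formed them. By Pearson's r 11 passed, by Spearman's rho 10, and by both 9. The share of other gene pairs that would pass was not computed, so these counts have no background. Both values of a pair come from the same array, so array quality is shared between them. The relations use 2-sided permutation tests with 100000 permutations, of which the smallest p is 1e-05, and Benjamini-Hochberg adjustment.

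The strongest was ITGA5 with ITGB1 (r = 0.693 and rho = 0.709 over 50 units, permutation p = 1e-05 for each, adjusted 0.000207 and 0.000103). Without DU4475 and HS605T, the units farthest from the ITGA5 median, r was 0.711. ITGAV with ITGB1 had r = 0.634 and rho = 0.707, ITGAV with ITGB5 0.568 and 0.428, and ITGAV with ITGB3 0.492 and 0.498. All of these passed. ITGAV with ITGB6 passed within the 26 units with high ITGB6 (r = 0.480, rho = 0.528), and ITGA4 with ITGB1 within the 24 units with high ITGA4 (r = 0.604, rho = 0.675). Among the 24 units with low ITGB6, ITGAV and ITGB6 had r = −0.245 (permutation p = 0.25).

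The hemidesmosome genes gave a different picture for the ligand and for the alpha subunit. LAMB3 with ITGB4 had r = 0.493 and rho = 0.488 (adjusted permutation p = 0.00186 and 0.00227), and r = 0.403 without MCF102A and HCC1806. ITGA6 with ITGB4, the chains of 1 receptor, had r = 0.229 and rho = 0.306 and did not pass (adjusted permutation p = 0.178 and 0.0795). ITGA6 with ITGB1 passed by r alone (0.334, adjusted permutation p = 0.0449) and rests on AU565 with SKBR3: without that pair, r was 0.11 (adjusted permutation p = 0.554). ITGA2 with ITGB1 passed by rho alone (0.364, adjusted permutation p = 0.0351).

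Of the laminin pairs, LAMB1 with LAMC1 passed by both measures (r = 0.360, rho = 0.615). LAMA4 with LAMC1 also did within the 27 units with high LAMA4 (r = 0.499, rho = 0.475), and LAMA4 with LAMB1 there only by r (0.497; rho 0.449, adjusted permutation p = 0.0577). LAMA5 had negative values with LAMB1, LAMB2 and LAMC1 (r from −0.239 to −0.291), none of which passed. The leukocyte pairs ITGAL with ITGB2 and ITGAE with ITGB7 did not pass. Without the 5 fibroblast-like lines, 6 relations passed by r in place of 11. Those lost were LAMB1 with LAMC1 (r = 0.249), LAMA4 with LAMB1 (0.333) and LAMA4 with LAMC1 (0.266) in the units with high LAMA4, ITGA4 with ITGB1 in the units with high ITGA4 (0.406), and ITGAV with ITGB3 (0.368), with adjusted permutation p from 0.0517 to 0.423.

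**Figure D4:**
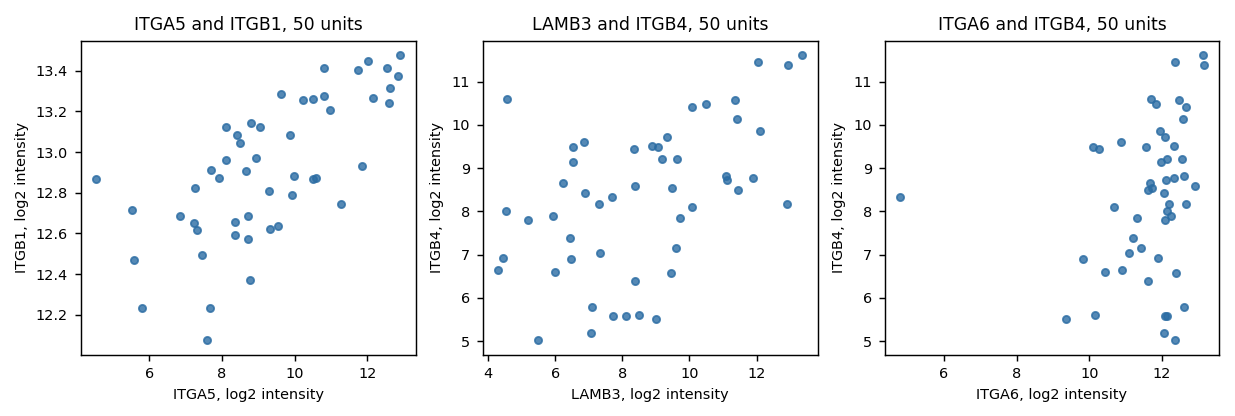
Log2 intensity of paired genes in 50 units (1 point per unit; x axis the first gene, y axis the second). ITGA5 and ITGB1 rose together (r = 0.693), LAMB3 and ITGB4 did so more loosely (r = 0.493), and ITGA6 and ITGB4 did not pass (r = 0.229), with AU565 and SKBR3 far to the left.

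ITGA5 and ITGB1 were the pair with the highest r, and their promoters are shown for that reason. Each run holds 250 bases before and 50 bases after the gene's start as RefSeq lists it (build GRCh38.p14), 5′ to 3′ on the minus strand, with ITGA5 at chr12:54419217-54419516 and ITGB1 at chr10:32958181-32958480. Capitals mark matches on either strand to the GC box (GGGCGG) and to the AP-1 motif (TGANTCA).
ITGA5: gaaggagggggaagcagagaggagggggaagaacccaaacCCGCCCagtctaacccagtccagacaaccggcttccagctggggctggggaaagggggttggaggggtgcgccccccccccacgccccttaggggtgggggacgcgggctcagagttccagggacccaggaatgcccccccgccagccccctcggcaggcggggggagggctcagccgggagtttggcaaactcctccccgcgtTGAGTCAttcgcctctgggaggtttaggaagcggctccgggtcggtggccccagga
ITGB1: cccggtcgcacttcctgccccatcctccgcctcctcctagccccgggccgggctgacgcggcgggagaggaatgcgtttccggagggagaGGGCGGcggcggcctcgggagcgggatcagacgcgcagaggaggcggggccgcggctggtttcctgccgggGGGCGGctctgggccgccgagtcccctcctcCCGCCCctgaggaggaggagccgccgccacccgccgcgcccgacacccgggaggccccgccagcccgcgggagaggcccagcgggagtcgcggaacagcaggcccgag

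The ITGA5 window held 1 GC box, at position −210 from the start, and 1 AP-1 match, at position −6. The ITGB1 window held 3 GC boxes and no AP-1 match. Neither held CCAAT or TATAAA. Of all 35116 promoters of this length in the table, 15786 (45%) held a GC box and 7.7% an AP-1 match, and 34.6% and 11.5% held CCAAT and TATAAA. These matches describe letters in the window and were not tested against the levels.

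Lines of 1 donor often differed in members. The largest difference of a detected member between lines of a set had a median of 1.21 in EFM192, against 0.75 over all genes, and 18 of 32 members differed by at least 1 there, against 36.4% of all genes. In AU565 and SKBR3 the median was 0.35 against 0.28, with 5 members past 1, against 9.13% of all genes. The other sets lay between, with 10 members past 1 in HMT3522 (13.7% of all genes), 12 in MB157 with MDAMB157 (24.7%), 12 in MDAMB435 (18.5%) and 13 in VP229 with VP267 (25.5%). EFM192 and MDAMB435 hold more lines than the other sets, and a largest difference over more lines tends to be larger, so the sets are not directly comparable. Each line was measured once, so a difference between lines cannot be set against a spread between replicates.

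Single members differed by far more. LAMB3 had 10.02 in EFM192B and 4.50 in EFM192C, and ITGA1 had 8.65 in MDAMB157 and 3.08 in MB157. ITGA1 also had 9.10 in AU565 against 4.65 in SKBR3, although these lines shared the low ITGA6 and LAMC1. ITGA4 had 9.52 in MDAMB435S and 5.38 in NM2C5, and ITGA2 11.37 in VP267 and 7.12 in VP229. ITGA1 and ITGA2, both collagen receptors, were thus among the members that differed most between lines of 1 donor.

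**Figure D5:**
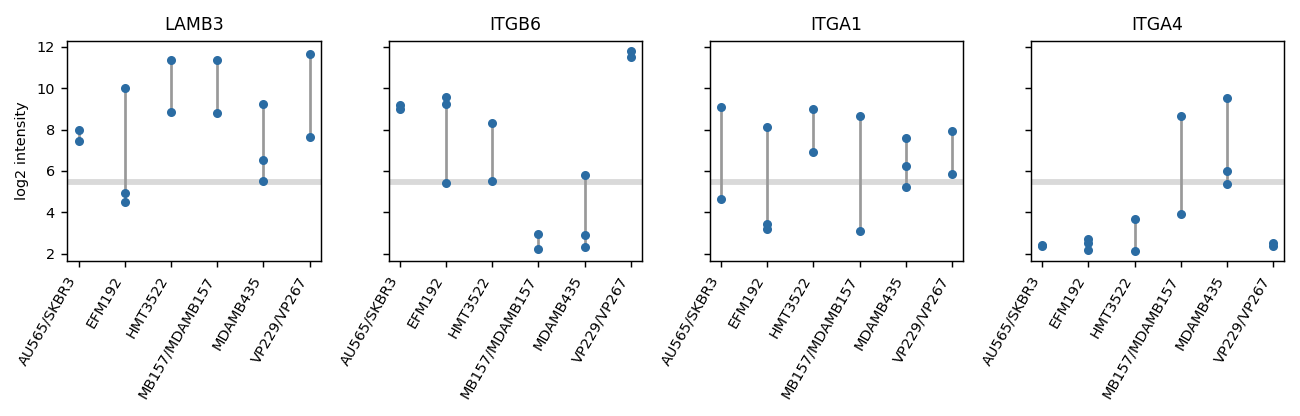
Log2 intensity (y axis) of LAMB3, ITGB6, ITGA1 and ITGA4 in the lines of each set that shares a donor (x axis; 1 point per line, grey bars join lines of a set, grey band the range of array medians). LAMB3 differed by 5.52 within EFM192 and ITGA1 by 5.58 between MDAMB157 and MB157, while ITGB6 stayed high in both VP lines.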

How the data were processed

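Per the labels, total RNA of the 58 lines was amplified by a NuGEN protocol and labelled with biotin before hybridisation, with 1 array for each line. The authors deposited log2 values made with RMA in Affymetrix Power Tools, per the submitters' processing notes; versions, and whether all arrays were normalized together, are not given in the sources used here. Of 52377 probe sets, 35184 name 1 gene in the platform annotation, and the one with the highest mean stood for each gene. Arrays have no counts: with 1 array per line, their number limits the precision, and p-values measure the spread between lines.

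Genes above the array median in at least 3 of 50 units were kept (14651). Slopes came from limma 3.58.1 in R 4.3.3 (trend and robust eBayes, adjusted p under 0.05). Clusters came from mclust 6.1.1 mixtures (a BIC gain over 10, Ashman D over 2, at least 3 units each). Members described line by line are the 10 with the largest SD, the up to 10 with the smallest adjusted p in each direction of each slope fit, and those with a line apart. Other members are given more briefly, and the neighbouring genes were chosen after their values were seen. Members, lists, scores and tests were chosen with earlier results of these data known. In simulated data of 14651 genes, 100 were planted at a slope of 0.5 and 100 at 0.25, in either direction. At 0.5, 92 were recovered on the luminal, 72 on the basal, 96 on the stromal and 98 on the mesenchymal score. At 0.25, 72, 45, 76 and 80 were recovered in the same order. Of the genes without a planted slope, 6, 6, 10 and 12 were called. The noise was drawn independently for each gene and only planted genes had a slope, so recovery may differ in the real data. Many slopes called here were smaller than 0.25. Alternatives changed the probe set rule, normalization, filter, units, lines, model and thresholds. Promoter sequences are from RefSeq (GRCh38.p14), where 25 members had an entry.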

Additional observations from a re-analysis of the deposited data

How the results depend on the processing

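The 4 slope counts (16 luminal, 1 basal, 18 stromal and 19 mesenchymal members), the 11 partner relations and the 22 members with an SD of at least 1 stayed within 1.5 times their value under all alternatives except these. With all 4 scores in 1 model, 2, 0, 3 and 3 members passed on the luminal, basal, stromal and mesenchymal score. Without the 5 fibroblast-like lines, 2 passed on the basal and 1 on the stromal score, and 6 relations passed. A second quantile normalization left 9 stromal members and all 58 lines as units left 6 mesenchymal ones; in both, and with averaged probe sets on the mesenchymal score, the score split into clusters and slopes were fitted within them. Without a cluster factor 4 passed on the basal score, and an SD of at least 1.5 held for 12. Leaving out AU565, SKBR3 and DU4475 together, chosen after seeing the data, left 0 on the basal score.

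Of 870 single values under the alternatives, 720 kept direction and call, 136 missed the threshold and 14 changed sign, all with adjusted p over 0.05. On the mesenchymal score LAMB3 was −0.031 with averaged probe sets and −0.0059 with 58 lines, and LAMB1 −0.030 with 58 lines. With all 4 scores in 1 model, ITGA5 (0.21) and ITGAV (0.11) turned on the luminal, ITGB3 (−0.047) and LAMB1 (−0.019) on the stromal, and ITGA1 (−0.22), ITGA11 (−0.10), ITGB6 (0.28) and LAMA5 (0.10) on the mesenchymal score. ITGA10 on the stromal score was −0.022 without AU565 and SKBR3, −0.023 without DU4475 and −0.029 without all 3. The causes of these changes were not tested.

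Over all genes, calls numbered 4977, 32, 4809 and 5396 on the luminal, basal, stromal and mesenchymal score. They were 230, 23, 694 and 264 in 1 model. They moved over 1.5 times to 1550 (stromal, second normalization), 1934, 2017 and 1992 (stromal, without AU565 and SKBR3, without DU4475, without all 3), 815 (stromal) and 82 (basal) without the fibroblast-like lines, 50 (basal) and 1090 (mesenchymal) with 58 lines, 3438 (mesenchymal, averaged probe sets), 20 (basal, without all 3 lines), and 940 (basal, no cluster factor). No single-gene probe set carried a mark for cross-hybridisation, so that alternative was not run. No paired analysis was possible because all lines form 1 group.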
